A study of Mus musculus with 4 samples.

Results

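Genes of the B lymphocyte lineage were followed in fetal mouse lung through 9 genes, Cd79a, Cd79b, Ighm, Ms4a1, Pax5, Vpreb1, Igll1, Ebf1 and Blnk. Members were all probe sets that the arrays' annotation pairs with 1 of these symbols, which gave 26 probe sets for 9 of the 18193 genes named by a single-gene probe set on the arrays. Of the 26, 23 were on the array design MOE430A and 3 on MOE430B. Another 5 probe sets pair a member with further genes, and no value is attributed to a member from them. The study hybridised RNA from lung of E18.5 embryos, shortly before birth, to 4 Affymetrix arrays, 1 for each genotype on each of 2 designs. The groups were wild type BALB/c embryos and embryos labelled BALB/c Myf5:Myod null (Myf5-/-:MyoD-/-), homozygous for null alleles of a pair of regulators of skeletal muscle formation, and the title of the series names the role of skeletal muscle in lung development as its subject. The labels name no treatment. The labels do not say whether 1 embryo or a pool was used, and since no array was repeated, no test and no p-value can be given.

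B lymphocytes arise from progenitors in the fetal liver before birth. The transcription factors Ebf1 and Pax5 commit a progenitor to the lineage, and the cell then assembles a pre-B receptor from the immunoglobulin heavy chain of Ighm, the surrogate light chain made by Vpreb1 and Igll1, and the signalling pair Cd79a and Cd79b. Blnk is the adaptor that carries the signal onward, and Ms4a1 encodes CD20, a surface protein of later B cells. The lung is not a known site of B cell formation.

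The upstream sequences of 6 of the 9 members were held in the RefSeq promoter table (build GRCm38.p6, 250 bases before to 50 after each start). Those of Cd79a (chr7:24897247-24897546, plus strand) and of Vpreb1 (chr16:16869206-16869505), Igll1 (chr16:16863936-16864235) and Blnk (chr19:40994172-40994471), all on the minus strand, are shown because these parts of the pre-B receptor and its adaptor share a short element that the choice of members did not use. Capitals mark the E-box CAGGTG or its reverse complement, the element read by Tcf3 (E2A) and related factors.
Cd79a: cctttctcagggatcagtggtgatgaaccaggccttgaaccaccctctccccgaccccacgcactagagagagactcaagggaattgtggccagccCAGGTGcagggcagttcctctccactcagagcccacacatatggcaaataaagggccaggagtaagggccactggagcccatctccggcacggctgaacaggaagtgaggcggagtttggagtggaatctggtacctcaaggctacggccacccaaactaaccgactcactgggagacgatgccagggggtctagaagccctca
Vpreb1: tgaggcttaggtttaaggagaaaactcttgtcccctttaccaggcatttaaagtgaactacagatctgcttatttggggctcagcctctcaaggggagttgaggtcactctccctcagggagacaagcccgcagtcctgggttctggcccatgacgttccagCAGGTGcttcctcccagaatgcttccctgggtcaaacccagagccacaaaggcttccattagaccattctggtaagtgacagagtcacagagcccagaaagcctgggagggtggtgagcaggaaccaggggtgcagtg
Igll1: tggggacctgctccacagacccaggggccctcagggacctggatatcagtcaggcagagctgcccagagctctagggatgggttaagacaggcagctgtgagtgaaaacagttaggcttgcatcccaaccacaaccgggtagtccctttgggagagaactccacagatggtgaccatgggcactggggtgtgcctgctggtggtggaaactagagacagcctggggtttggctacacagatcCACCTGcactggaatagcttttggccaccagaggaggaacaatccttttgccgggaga
Blnk: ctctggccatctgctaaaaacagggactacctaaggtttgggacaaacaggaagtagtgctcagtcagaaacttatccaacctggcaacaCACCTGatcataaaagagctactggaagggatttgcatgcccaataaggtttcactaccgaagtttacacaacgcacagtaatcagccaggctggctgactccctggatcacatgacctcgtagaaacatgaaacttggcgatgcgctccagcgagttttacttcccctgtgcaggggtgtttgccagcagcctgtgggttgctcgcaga
The E-box CAGGTG, on either strand, was present in 4 of the 6 genes and in 20.2% of all 32851 promoter windows. Member counts are per gene and percentages per window, and Ebf1 has more than 1 window, each of which was searched. The PU.1 core GAGGAA was also found in 4 of 6, those of Cd79a, Vpreb1, Igll1 and Ebf1, against 28.3% of windows. The octamer ATGCAAAT was found for Blnk (1.74% of windows), the E-box CAGCTG for Igll1 (16.3%) and the IRF element, a pair of GAAA with 2 free bases between, for Ebf1 (3.44%). No member window held an exact match of the EBF element, TCCC and GGGA with 2 free bases between (0.904% of windows). The same was true of the ETS element CCGGAAG (8.86%) and the NF-kB element, GGGAC joined to TTTCC (0.155%). Only these exact letters were searched, so sites that depart from them are missed, and absence of a match is not absence of a site. Igll1 and Vpreb1 are neighbours, with 0 protein-coding genes starting between them in the RefSeq table. Matches of these 8 motifs overlapped in 0 cases in the member windows. A further 4 patterns that contain or widen them were searched on both strands. ATGCAAA was found for Blnk (4.63% of windows), GAGGAAGT for no member (3.20%), CAANTG for Ebf1 (37.4%) and CAGNTG for the 4 genes with CAGGTG (51.4%). CAGGTG was chosen for display after the matches of all 12 patterns were seen, so its count is a description.

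Most B lineage probe sets on MOE430A were dim in both genotypes, and those on MOE430B reached the median signal of their own design in at least 1 genotype. The summed signal on each design was no lower on the arrays labelled double knockout than on the wild type arrays. In each pair of signals the wild type comes first, and the double knockout second after dividing by 1 factor per design (1.004 and 1.008) that set the median ratio to 1. A probe set passed when its higher signal reached the median signal (787.4 for MOE430A, 855.1 for MOE430B), and signals under the 25th percentile (283.8 and 278.1) were set to that floor. Of the 26 probe sets, 7 passed, for 4 genes (Cd79a, Ighm, Pax5 and Ebf1). Cd79b, Ms4a1, Vpreb1, Igll1 and Blnk had no passing probe set, and their highest signal was 650.6. Of the 7, 4 reached the filter on both arrays and 3 (those of Cd79a at 1418830_at, of Ighm at 1425247_a_at and of Ebf1 at 1457441_at) only on the double knockout array, where they read higher, so the filter itself favoured a higher reading for these 3. Both signals lay below the floor in 10 probe sets, and these gave no fold.

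On MOE430A the summed signal of the 23 member probe sets was 9906 in wild type and 10304 in the double knockout, 104.02% of the wild type level. Without the 11 Ighm probe sets the sums were 3597 and 4533 over 8 genes, and 9 of these 12 probe sets read higher in the double knockout. Of the 12, 5 had both signals below the floor and 2 had 1, and the sums include such signals. Among the 10 member probe sets, Ighm included, with both signals at or above the floor, 7 read higher and 3 lower. Of all such probe sets of the design, 49.3% read higher. These counts are descriptions. On MOE430B the sums over 3 probe sets were 4152 and 6577, with all 3 higher in the double knockout. Both signals of these 3 were at or above the floor, and 50.4% of all such probe sets there read higher. In whole lung RNA, the number of B cells and the amount of RNA per B cell cannot be told apart.

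**Figure D1:**
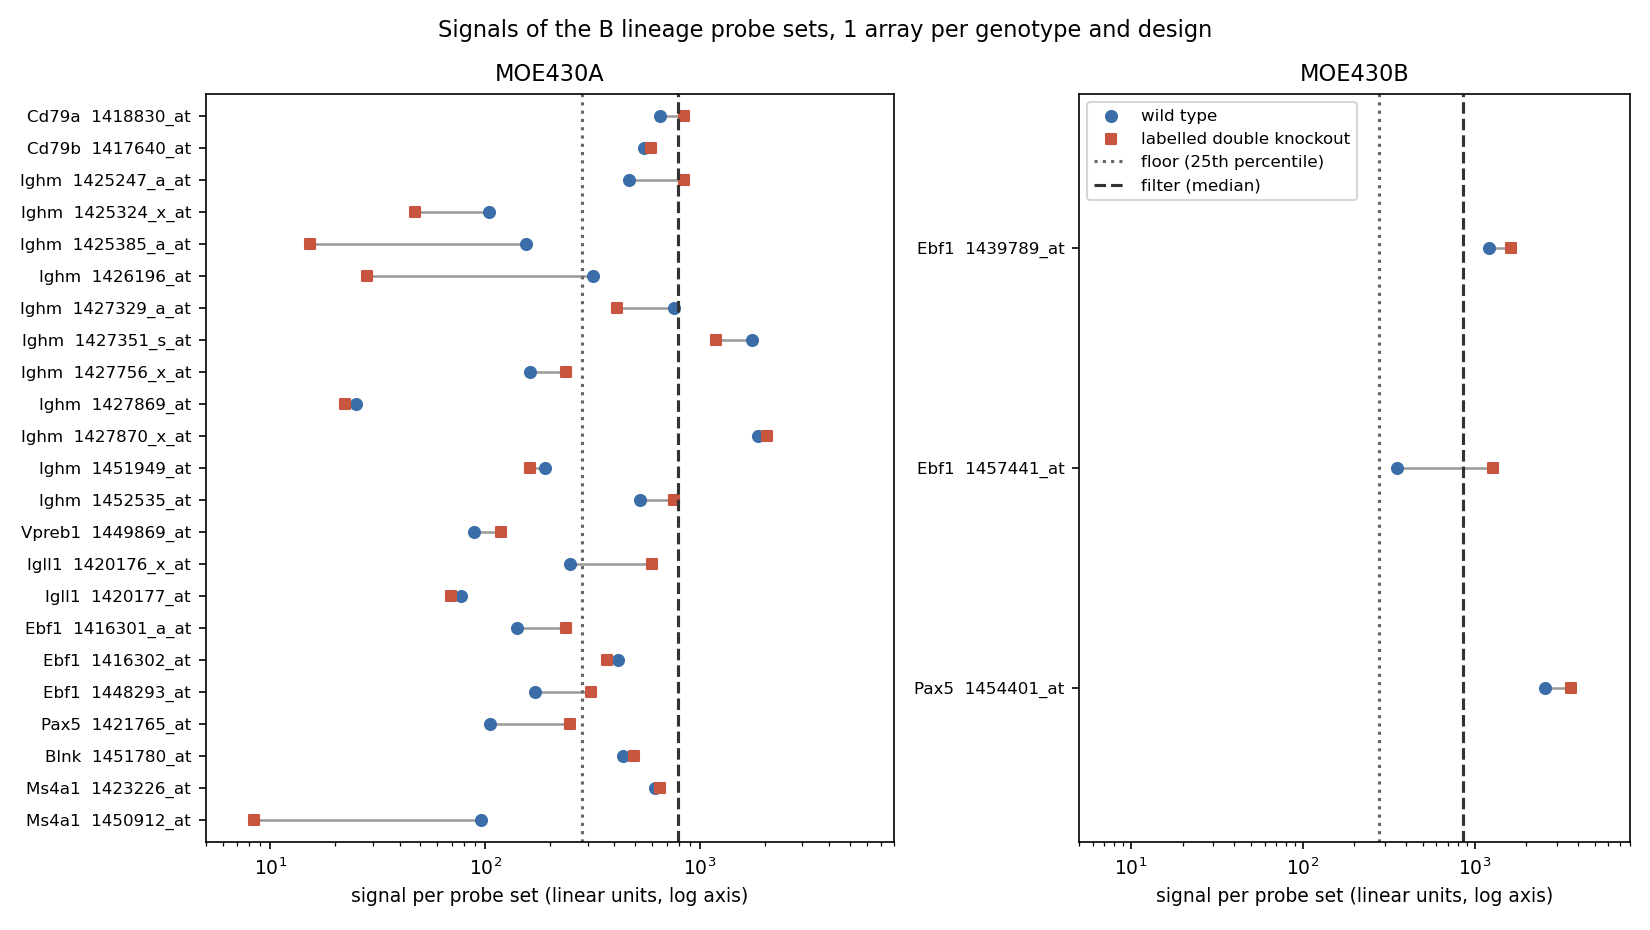
Signal of each of the 26 B lineage probe sets (log axis, linear signal units) on the wild type array (circles) and the array labelled double knockout (squares), by design, with the floor (dotted) and the filter (dashed). There was 1 array per genotype and design and hence no error bar. Most probe sets of MOE430A lie left of the filter, and the long bars there belong to signals below the floor.

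No member gene reached a 2-fold difference by its brightest passing probe set. On MOE430A, 0 of 2 measured members were at least 2-fold lower and 0 at least 2-fold higher, where 1.78% and 1.76% of the 7658 genes measured were. On MOE430B the counts were again 0 of 2 in each direction, against 6.26% and 7.07% of 6728 genes. Counts of 0 among 2 members are near this background and are no result about the members. The median log2 ratio of the members was 0.25 on MOE430A, where all genes measured had 0.01, and 0.47 on MOE430B, where all genes had -0.04. Each of these medians rests on 2 genes, and on MOE430A one of them is Cd79a, which passed only through the double knockout array, so they are given as descriptions.

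The spread to set these against comes from other probe sets. From 100 probe sets present on each design, the SD of a single log2 ratio was 0.24, but these are bright, with a median at the 85.0th percentile of signal, and their mean ratio was -0.21 on MOE430B against 0.00 on MOE430A. For dimmer probe sets the spread was wider. Between the floor and the filter of MOE430A, where 9 member probe sets lie, the 10th to 90th percentiles of the log2 ratio over 5758 probe sets were -0.99 and 0.95. From the filter to the 75th percentile of signal they were -0.57 and 0.52 on MOE430A, and -1.21 and 1.41 on MOE430B. Of the 16 member probe sets with at least 1 signal at or above the floor, 12 lay inside the 10th to 90th percentiles of their band, before the floor was applied. Above lay those of Ighm at 1425247_a_at, Igll1 at 1420176_x_at and Ebf1 at 1457441_at, and below lay that of Ighm at 1426196_at, whose second signal is below the floor.

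The signalling pair of the receptor read nearly alike in the genotypes. Cd79a, the alpha chain that anchors the receptor to its kinases, had signals of 649.4 and 839.1 on MOE430A, between the 43.9th and 52.3rd percentiles of the arrays. Its log2 ratio of 0.37 lay inside the range of probe sets of like signal. Cd79b, the beta chain, read 549.4 and 589.7, below the filter, with a log2 ratio of 0.10. Both chains had a single probe set, and both were slightly brighter on the array labelled double knockout.

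Ighm, the heavy chain of IgM and the member with the most probe sets, was read by 11 on MOE430A, and they did not move one way. By probe set 1427870_x_at the signals were 1863 and 2050, a log2 ratio of 0.14. Probe set 1427351_s_at read 1742 and 1192, a log2 ratio of -0.55, and 1425247_a_at read 465.2 and 846.2, a ratio of 0.86. These are the 3 that passed, and their suffixes mark probes that may also bind related transcripts, so their disagreement leaves the direction of Ighm unsettled.

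Below the filter the same disagreement was seen for Ighm. Probe set 1427329_a_at read 760.9 and 413.1 (log2 ratio -0.88), while 1452535_at read 526.7 and 759.8 (0.53). Probe set 1426196_at read 316.4 and 28.2, of which the second is below the floor, so that it is at least 1.11-fold lower. The other 5 had both signals below the floor, between 15.4 and 236.8. Over all 11, 4 read higher and 7 lower in the double knockout, and the sum was 6309 in wild type and 5772 in the double knockout.

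The surrogate light chain genes were at the low end of the arrays. Vpreb1, which supplies its variable-like part, read 89.1 and 118.9, both below the floor. Igll1, also called lambda 5, which supplies its constant-like part, read 248.7 and 597.3 by probe set 1420176_x_at and 77.5 and 69.6 by 1420177_at. The first of these was at least 2.11-fold higher in the double knockout, below the filter and with a suffix for possible cross-hybridisation, while the other gave no fold. In wild type lung, no single-gene probe set for the surrogate light chain reached the floor.

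Pax5 and Ebf1, the commitment factors, passed the filter only on MOE430B and read higher in the double knockout there. Pax5, which holds the B cell program in place, read 2576 and 3660 on MOE430B, at the 81.6th and 88.6th percentiles, a log2 ratio of 0.51. Its probe set on MOE430A read 105.1 and 247.5, both below the floor. The bright reading of Pax5 thus rests on a single probe set that the other design did not share. The 100 probe sets present on each design were a median 4.02-fold brighter on MOE430B, so levels are not compared across designs.

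Ebf1, which opens the B lineage program and is also expressed outside blood cells, had 5 probe sets. On MOE430B, 1439789_at read 1220 and 1638, a log2 ratio of 0.43, and 1457441_at read 355.7 and 1278, 3.59-fold higher. The latter passed only through the double knockout array, above the filter of 855.1, and was the 1 of 3 passing member probe sets on MOE430B past 2-fold, which is given as a description. On that design 9.7% of passing probe sets were higher by 2-fold or more and 8.0% lower by as much. On MOE430A, where 2.05% of passing probe sets were at least 2-fold lower and 1.8% higher, 0 of 4 passing member probe sets were past 2-fold and no Ebf1 probe set passed. There, 1416302_at read 414.2 and 370.6 (-0.16), 1448293_at read 170.6 and 311.3, at least 1.10-fold higher, and 1416301_a_at read 141.0 and 238.1, both below the floor. The size of the Ebf1 difference thus depended on the probe set. Of the 5, 4 read higher in the double knockout, but 1416301_a_at lay below the floor in both genotypes and 1448293_at in wild type. Of the 4, only 1439789_at reached the filter on both arrays.

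Blnk and Ms4a1, the adaptor and the marker of later B cells, stayed below the filter. Blnk read 438.1 and 491.6, a log2 ratio of 0.17. Ms4a1 read 618.6 and 650.6 by probe set 1423226_at, a log2 ratio of 0.07, and 95.4 and 8.43 by 1450912_at, both below the floor. For both genes the readable probe set differed by less than the spread of probe sets of like signal. Counting every member probe set with both signals at or above the floor, filter aside, 0 of 10 on MOE430A were at least 2-fold lower, against 1.41% of all such probe sets, and 0 of 10 at least 2-fold higher, against 1.29%. Their log2 ratios ran from -0.88 to 0.86.

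**Figure D2:**
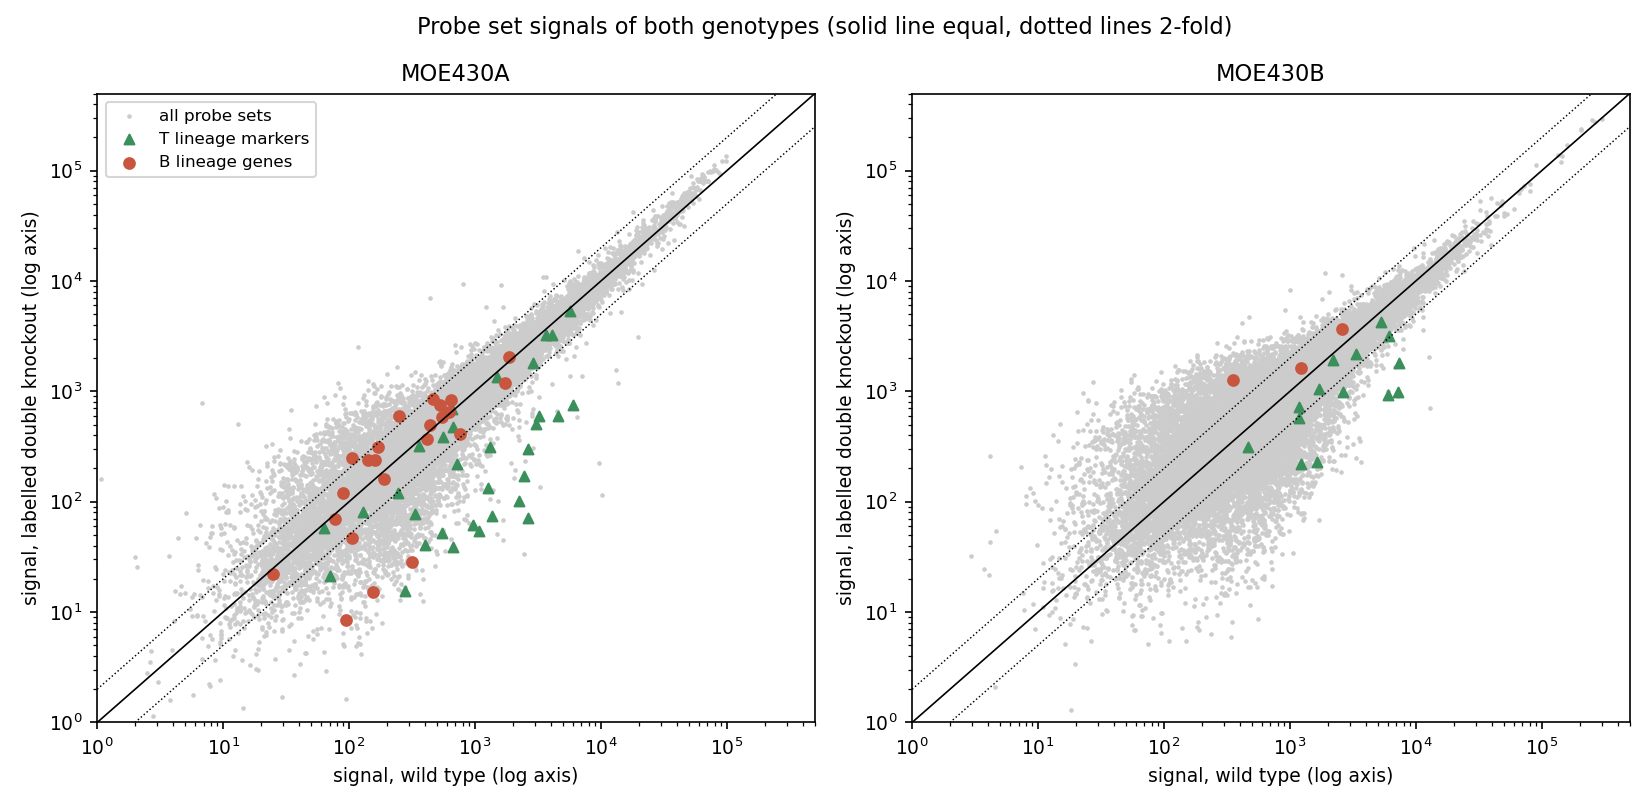
Signal of every probe set on the wild type array (horizontal) and the array labelled double knockout (vertical), both on log axes, by design, with B lineage genes as circles and T lineage markers as triangles. The B lineage circles with both signals above the floor lie between the 2-fold lines, apart from the Ebf1 probe set at 355.7 and 1278 on MOE430B, whereas many T lineage triangles on MOE430A lie below the lower 2-fold line.

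Other genes of B cells, taken as a list of 32, were mostly dim on MOE430A, where 7 of 30 probe sets passed, and mostly above the filter on MOE430B, where 12 of 15 did. Of the 25 genes present on either design, 13 had a passing probe set. On MOE430A, 6 of 21 genes present were measured, 2 lower and 4 higher, 0 past 2-fold in either direction, with a median log2 ratio of 0.06. Among the 4 higher, Cd22 and Vpreb3 reached the filter only on the double knockout array, so the filter favoured a higher reading for them. Plac8 read 3282 and 1974 (-0.73) and Ralgps2 1745 and 1931 (0.15). On MOE430B, 8 genes were measured, 5 lower and 3 higher, with a median of -0.14. Mzb1, a chaperone of antibody secretion, was the 1 gene past 2-fold, at 8988 and 3934, 2.28-fold lower. Bach2, a repressor that holds B cells short of plasma cells, read 3806 and 2993 (-0.35), and its other passing probe set went the other way (0.71).

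Some further B cell genes are named after their values were seen. Cd22, an inhibitory co-receptor of B cells, read 716.0 and 1318 (log2 ratio 0.88), and Vpreb3, a relative of the surrogate light chain, 784.5 and 827.9 (0.08). Each of these passed only through the double knockout array, where it read higher. Below the filter on MOE430A, 17 probe sets of this list gave a ratio, 11 lower and 6 higher. Blk, a kinase of the receptor, read 373.5 and 760.7, 2.04-fold higher, and was the 1 of these past 2-fold. Among the lower, Cr2, the complement receptor CD21, read 548.9 and 324.0 (-0.76), and Bcl11a, a factor of early lymphocytes, read 738.2 and 377.6 (-0.97). The passing probe sets of Bcl11a on MOE430B disagreed, with 0.39 by the brightest and -0.31 and -1.35 by the others. Tnfrsf13c, the receptor for the survival factor BAFF, read 479.5 and 301.3 (-0.67), and Spib, an ETS factor, 680.5 and 505.0 (-0.43). The probe sets of Ikzf3, a zinc finger factor of B and T cells, disagreed, with 1672 and 362.6 (-2.21), 1395 and 1747 (0.33) and, below the filter, 322.7 and 748.9 (1.21). Lyn, a receptor kinase, was not analysed here.

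Genes that carry the signal of the receptor, a list of 20 that other blood cells and, for many, lung cells also use, leaned lower. On MOE430A, 8 of 12 measured genes were lower and the median was -0.32, with 2 genes lower by 2-fold or more. Syk, the kinase recruited by Cd79a and Cd79b, read 1282 and 827.5 (-0.63), with 371.9 and 583.3 (0.65) by a probe set below the filter. Btk, the kinase downstream of Blnk, read 996.4 and 554.9 (-0.84). The genes past 2-fold, named after their values were seen, were Prkcb at 1322 and 470.8 (-1.49) and Pik3cd at 793.1 and 306.6 (-1.37). Btk, Prkcb and Pik3cd passed only through the wild type array, so the filter favoured a lower reading in the double knockout for them. Pik3cd read 14934 and 19589 (0.39) on MOE430B, so its probe sets disagreed.

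Other genes of the signalling list differed in both directions. Fcgr2b, an inhibitory Fc receptor, read 5185 and 3953 (-0.39), and Bcl10, an adaptor of NF-kB activation, 2893 and 2500 (-0.21). On MOE430B, 6 of 9 measured genes were lower, 1 at least 2-fold, with a median of -0.21. That gene was Cbl, a ubiquitin ligase, at 11409 and 4686 (-1.28). Nfatc1 read 3310 and 2294 (-0.53), with 1.28 by another passing probe set there, and Vav1, an exchange factor of blood cells, 4340 and 4953 (0.19).

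Regulators of lymphoid progenitors, a list of 27 shared between B and T precursors, held some of the lowest ratios. On MOE430A, 12 of 16 measured genes were lower, 3 at least 2-fold, with a median of -0.19. Rag1, the recombinase of antigen receptor genes in both lineages, was at least 11.7-fold lower (3308 and 135.7), and Myb, a factor of blood progenitors, was lower by all 3 passing probe sets (-1.92 to -1.30). Its partner Rag2 read 108.6 and 49.8, both below the floor. Dntt, the enzyme that adds bases at receptor joints, read 1137 and 666.8 (-0.77), with both signals of its other 2 probe sets below the floor. Rag1, Dntt and the MOE430A probe set of Ikzf1 reached the filter only on the wild type array, so the filter favoured a lower reading for them. Il7r, the receptor for the growth factor of early lymphocytes, read 362.1 and 357.1 (-0.02), below the filter.

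Among the same regulators, Tcf3, which acts before Ebf1, read 3200 and 3012 (-0.09) by its brightest probe set. Id3, an inhibitor of Tcf3, read 4126 and 4380 (0.09), and Tcf4 2459 and 2577 (0.07). On MOE430B, 5 of 7 measured genes were lower, 2 at least 2-fold, and 1 was at least 2-fold higher, with a median of -0.46. Ikzf1, needed for all lymphocytes, read 7276 and 907.5 there (-3.00), Lef1 4237 and 2587 (-0.71) and Erg 3835 and 3585 (-0.10).

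Markers of other cells that could be held with the lung were set beside the members. Of 12 T lineage markers measured on MOE430A, all 12 were lower in the double knockout and 10 at least 2-fold, with a median of -2.68. These 10 reached the filter only on the wild type array, so the filter favoured a lower reading in the double knockout for them. The summed signal of all 32 probe sets of the list, passing or not, was 56417 and 21400. Ratios of the 12 measured markers ran from -3.22 for Cd3d, at its bound, to -0.08 for Ets1. On MOE430B, 6 of 6 were lower by their brightest passing probe sets, 1 at least 2-fold. Other passing probe sets there were past 2-fold lower, among them those of Cd8a (-2.70), Themis (-2.56, at its bound) and Satb1 (-2.14, at its bound). No passing probe set of the 6 read higher. Of 10 pan-leukocyte genes on MOE430A, 10 were lower and 5 at least 2-fold, with sums of 37684 and 20043. Among the 5, Ptprc, Cd52 and Lcp2 reached the filter only on the wild type array. On MOE430B 2 of 3 were lower, 0 by 2-fold. The third, Laptm5, was at least 4.21-fold higher there (273.9 and 1171), while its brightest probe set on MOE430A had -0.27. The part of these cells in the B lineage values was not tested, and no test of the difference between the lists is possible with 1 array per group.

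MHC class II genes, which B cells express together with dendritic cells and thymic epithelium, were mostly lower in the double knockout. Of 6 measured on MOE430A, 6 were lower and 5 at least 2-fold, with a median of -1.68 and sums of 23060 and 8696. Among the 5, H2-Ab1 and H2-Ea reached the filter only on the wild type array. Cd74, the invariant chain, read 6137 and 2099 (-1.55). On MOE430B, H2-Aa was at least 12.0-fold lower and H2-DMa had 0.21. Thymic epithelium markers had 3 of 6 genes at least 2-fold lower on MOE430A: Prss16, Tbata and Ccl25, a thymic chemokine, at 2443 and 33.5. These 3 reached the filter only on the wild type array. The other 3 were not past 2-fold: Foxn1 had -0.02 and Krt5, which passed only through the double knockout array, 0.47. Krt8 had -0.03 by its brightest probe set and -1.07 by another. On MOE430B the count was 0 of 3, and Ccl25 read higher in the double knockout (1276 and 1890, 0.57).

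Macrophage markers had a median of -0.06 over 11 genes on MOE430A, with 1 at least 2-fold higher, and 0 were measured on MOE430B. Fetal liver and erythroid markers, from the organ where B cells form at this age, had a median of 0.48 over 6 genes, with 2 past 2-fold upward and 1 past it downward, and -0.72 for the 1 gene on MOE430B. That gene, Ttr, encoding the carrier transthyretin, had 1.14 on MOE430A, so its probe sets disagreed. Albumin (Alb), a liver gene, read 2530 and 3621 (0.52). On MOE430A the list split: the liver genes Afp (1.22), Ttr, Alb and Apoa1 (0.43) were higher. The erythroid genes Slc4a1 (-1.34) and Alas2 (12333 and 8377, -0.56) were lower, so the median of 0.48 does not describe the erythroid genes. Lung epithelium markers were all measured on MOE430A, 12 of 12, with 4 lower and 8 higher, 0 past 2-fold and a median of 0.42. Sftpc read 78525 and 113337, and Cdh1 4054 and 3178 (-0.35). On MOE430B 2 of 2 were higher.

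**Figure D3:**
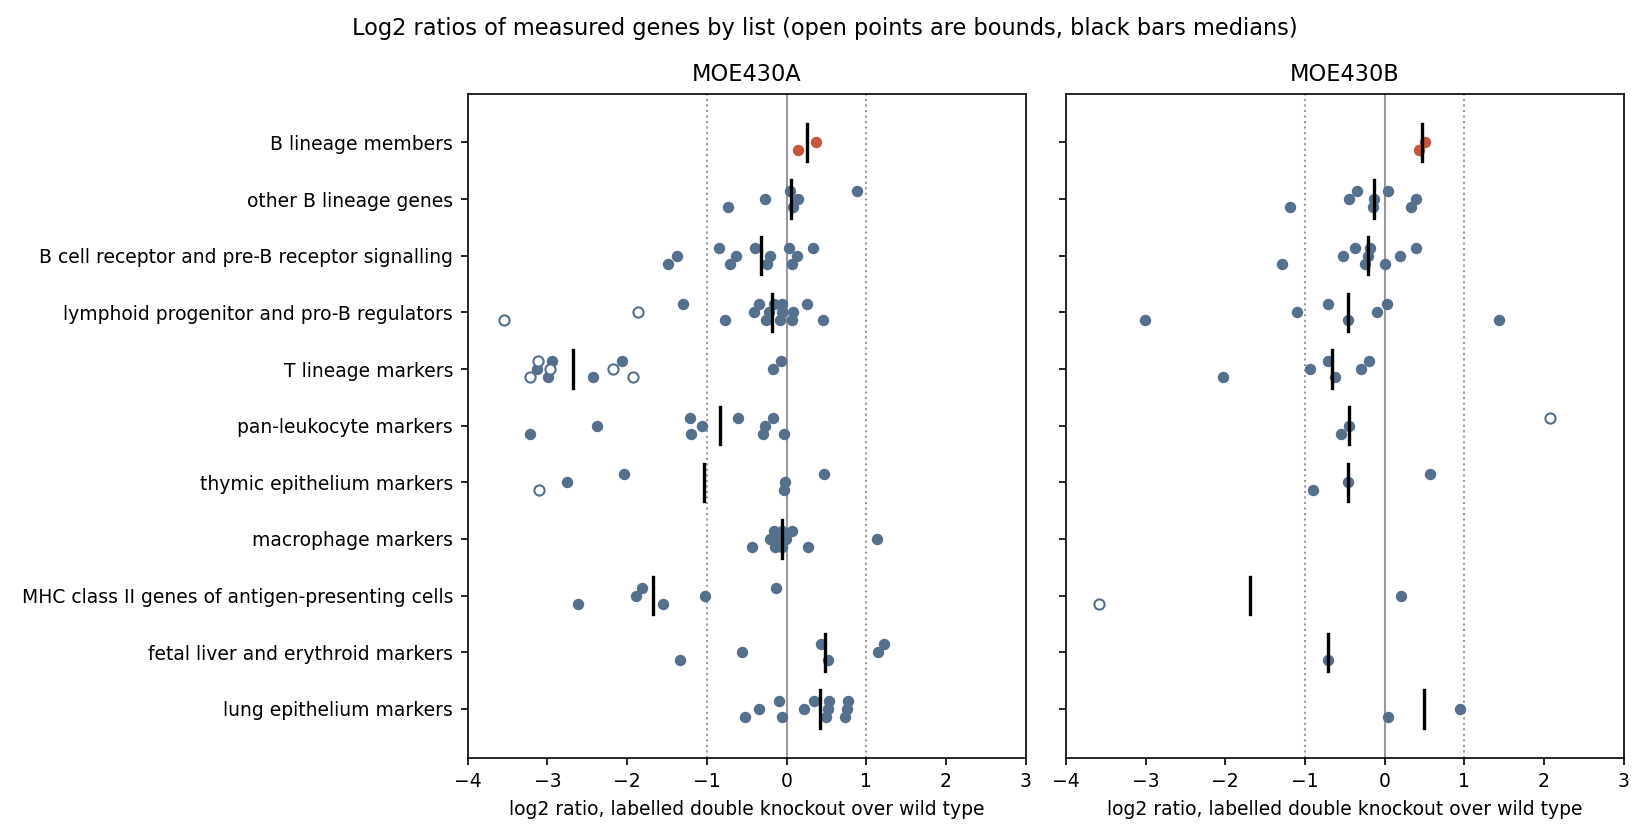
Log2 ratio of the array labelled double knockout over wild type (horizontal) for each measured gene of the B lineage members and of the other 10 lists, by design. Each point is 1 gene, open points are bounds set by the floor, black bars are list medians and dotted lines mark 2-fold. The 4 member values lie between 0.14 and 0.51, while 10 of 12 T lineage markers on MOE430A lie left of the lower 2-fold line. Those 10 reached the filter only on the wild type array.

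The genotype labels were checked on the targeted genes. Myf5 read 110.5 and 8.94, both below the floor, and Myod1 went against the labels with 85.0 and 1081 on MOE430A and 337.2 and 607.2 on MOE430B. A probe set that lies beyond the deleted stretch says nothing of the genotype, and where these lie is unknown here. Directions therefore rest on the labels. Xist read 7600 and 2749 and the Y-linked Eif2s3y 13.1 and 502.3, and the labels give no sex, so sex and genotype cannot be told apart. The 18S ribosomal RNA controls read 3.91-fold (MOE430A) and 3.13-fold (MOE430B) higher in the double knockout at the median. The part of sex and of ribosomal RNA in the B lineage values was not tested.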

How the data were processed

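Messenger RNA of E18.5 fetal lung was measured on 4 Affymetrix arrays, and samples were grouped by their titles. The deposited values are linear intensities, 1 signal per probe set. The submitters' processing notes name MAS5. Version, settings and detection calls were not given in the sources used here. Each array was scaled on its own, so ratios were formed only within a design. Dim MAS5 signals are noisy, and most B lineage probe sets are dim.

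Affymetrix controls (64 probe sets on each design) were removed. Gene names came from the platform annotation held by GEO: 20380 on MOE430A and 14661 on MOE430B had 1 gene, 691 and 245 several, and 1555 and 7605 none. Of the 1-gene probe sets, 20351 and 14486 matched the RefSeq gene table of GRCm38.p6 by Entrez identifier, with the same symbol in each case. On each design the passing probe set of highest mean log2 signal stood for its gene, and where 1 signal lay below the floor the ratio is a lower bound. A gene of any list could pass through 1 array alone, the array on which it read higher. The number of arrays limits the precision, and no test was made.

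Every member probe set is accounted for. From each other list, up to 4 measured genes were named, the 2 lowest and 2 highest ratios on a design among genes at or above the 75th percentile of signal, as were Rag1, Rag2, Dntt, Il7r, Syk, Btk, Lyn and the targeted genes. The text gives part of those names, and a further gene that the rule names is not reported here. Members and lists were chosen with earlier results of these data known. Alternatives covered scaling, floor, filter, probe set choice and cross-hybridising probe sets. In simulated arrays, with changes planted among probe sets at or above the 75th percentile of signal, changes of 1.5 (log2) passed 2-fold in 97 of 100 cases over 22626 probe sets on MOE430A and in 95 of 100 over 22511 on MOE430B, and recovery among dim probe sets, where most members lie, was not tested. The work used python 3.11.15, numpy 2.4.6 and pandas 2.3.3.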

Additional observations from a re-analysis of the deposited data

How the results depend on the processing

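Among 9 alternatives, counts of member genes past 2-fold and member medians stayed near the values given in 51 of 54 comparisons, by less than 0.24 for medians. The exceptions were a count of 1 member at least 2-fold higher on MOE430A without a filter (Igll1, at its bound, of 7 members with a ratio, where 1.88% of genes were), and, on MOE430B with the median over passing probe sets, a count of 1 at least 2-fold higher (Ebf1) and a median of 0.82. Within that limit, the MOE430A median, which rests on 2 genes, fell from 0.25 to 0.11 with the floor at the median and to 0.14 over 7 members without a filter, and to 0.14 over 1 member with the filter at the 75th percentile. No count of members at least 2-fold lower left 0 under any of the 9 on either design. Of the 7 passing probe sets, each kept its sign under every alternative that gave a value. With the floor at the median of the design, by construction, 3 moved closer to 0, Cd79a to 0.09, Ighm probe set 1425247_a_at to 0.10 and the Ebf1 probe set 1457441_at to 0.58. Over the 11 gene lists, all 63 list medians recomputed with another scaling kept their sign, with a largest shift of 0.12. No paired analysis was possible because each genotype has 1 array per design. Low signal limits what can be said: 19 of 26 member probe sets did not pass, and for 10 of them both signals were below the floor.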

Other observations

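Immunoglobulin genes other than Ighm, examined after the values of the members were seen, were also dim. On MOE430A, 31 single-gene probe sets for 19 heavy, kappa and lambda chain genes or segments summed to 6286 in wild type and 6405 in the double knockout, with 16 higher and 15 lower, and 25 had both signals below the floor. Of the 31, 4 passed the filter. Ighg3, the constant region of an IgG, read 894.2 and 514.7 (log2 ratio -0.80), and Igha, that of IgA, 621.6 and 896.4 (0.53). The kappa segments Igkv19-93 and Igkv9-120 read 839.6 and 803.0 (-0.06) and 597.0 and 863.3 (0.53). Ighg3 passed only through the wild type array, and Igha and Igkv9-120 only through the double knockout array, in each case where the signal was higher. The highest signal among the 31 was 896.4. The single such probe set on MOE430B, for Iglv1, had both signals below the floor.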
